A study of Mus musculus with 4 samples.

Results

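Serpins, cathepsins and legumain form the protease and protease-inhibitor group described here: the genes whose array name is Serpin followed by a clade letter and number, Cts followed by 1 letter or digit, or Lgmn. They were 78 of the 27574 genes with a probe on the array, 55 serpins, 22 cathepsins and legumain, measured by 101 probes. The tissue was the posterior part of mouse embryos at 5 somites (the study title says 5/6 somites), taken behind the last somite boundary, with 10 embryos of a genotype in a pool. Cdx2+/-Cdx4-/- mutants, with 1 Cdx2 allele lost and Cdx4 lost, were hybridised against wildtype on each of 4 Agilent arrays of 2 colours. Cdx2 and Cdx4 are caudal homeobox genes that act in the growth of the posterior body axis. The labels name the arrays replicate 1, its dye swap, replicate 2 and its dye swap, here arrays 1 to 4. The labels do not say whether replicates 1 and 2 were separate pools, and p-values here cover the spread among hybridisations alone, which may be technical. In such bulk tissue, fewer cells of a type and less RNA per cell cannot be told apart.

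The genotype of the channels was not settled by the labels. Cdx4 had log2 Cy5 over Cy3 ratios of one sign on arrays 1 and 2 and of the other sign on arrays 3 and 4, so 2 of the 4 arrays ran against their labels. Arrays of the same labelled dye orientation correlated negatively over all 41174 probes (Pearson r across probes, which are not independent, was -0.36 for arrays 1 and 3 and -0.38 for arrays 2 and 4). Each array was therefore turned so that the Cdx4 ratio was negative, and a ratio below 0 means less RNA in the channel with less Cdx4. That channel is the mutant by the labels of arrays 1 and 4, and the wildtype by the labels of arrays 2 and 3, by which every sign below turns. Turned in this way, Cdx4 had log2 ratios of -2.59, -2.11, -2.82 and -2.42 on arrays 1 to 4, values fixed by the rule in sign. Cdx2 had -0.77, -0.50, -0.45 and -0.45 (mean -0.54 ± 0.10 SE, limma adjusted p = 0.000808), and Cdx1 had 0.07, 0.32, 0.57 and 0.62 (mean 0.40 ± 0.11 SE, limma adjusted p = 0.0193). The share of spots well above background was 50.6% to 56.4% in Cy3 and 58.9% to 64.9% in Cy5.

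Cathepsins are proteases, most of them lysosomal and most using a cysteine in the active site. Legumain is a lysosomal protease that cuts after asparagine and processes several cathepsins. Serpins are proteins that trap a protease by changing shape when it cuts them, although some serve as carriers or chaperones. Many clade A, C, D, F and G serpins are plasma proteins made by the liver, most clade B serpins act inside cells, and before the liver forms, the visceral endoderm of the yolk sac takes up material into large lysosomes and secretes plasma proteins.

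Of the 78 genes, 23 had a probe that was well above background in 1 or both aligned channels on each of the 4 arrays and were tested (29.5%, against 53.9% of all 27574 genes), and all 23 were above background in both channels of all 4 arrays. Of these, 9 fell, 1 rose and 13 did not pass in limma with arrays 1 and 2 averaged as one value and arrays 3 and 4 as the other (adjusted p under 0.05, Benjamini-Hochberg over 14868 genes); with the sign turned these are 9 that rose and 1 that fell. The 9 that fell were Ctsh, Ctsc, Lgmn, Serpinb1a, Serpinc1, Serpina1d, Ctsl, Serpinf2 and Ctsb, and the gene that rose was Serpinf1. They made up 39.1% and 4.35% of the tested members, where 4.31% of all genes tested were called lower and 3.23% higher. The median log2 ratio was -0.05 over the 23 members and 0.02 over all genes tested. The arrays were also paired 1 with 3 and 2 with 4, called the dye-balanced pairing below. There, 10 members were called lower and 4 higher, where 19.5% of all genes were called lower and 22.6% higher. As turned by Cdx4, each of its pairs holds both dye orientations, whereas by the labels each pair shares an orientation. Pairing arrays 1 with 4 and 2 with 3, called the third pairing below, balances the dyes of the turned arrays too.

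**Figure D1:**
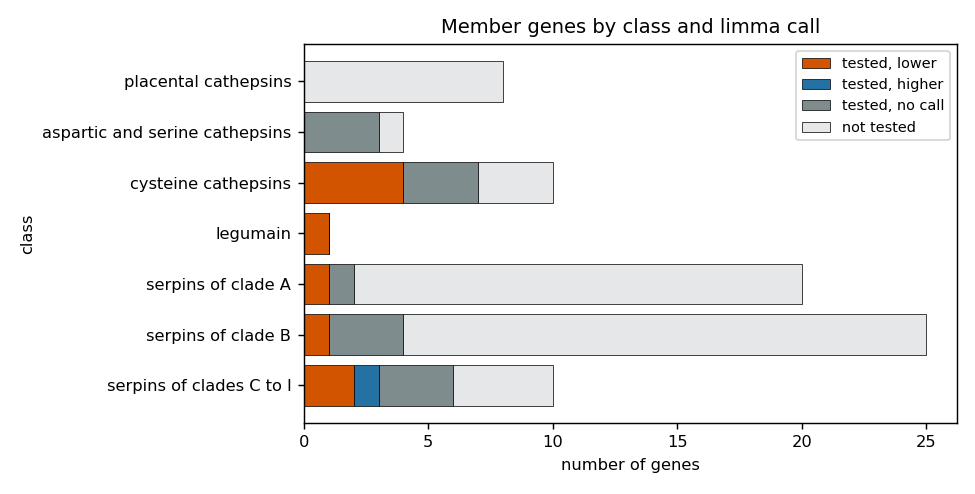
Number of member genes in each class (horizontal axis), split by whether they were tested and by the limma call; lower and higher refer to the channel with less Cdx4. Most cysteine cathepsins were tested, whereas 18 of 20 clade A and 21 of 25 clade B serpins were not, and no placental cathepsin was.

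The cysteine cathepsins and legumain held 5 of the 10 calls. Of 11 genes, 8 were tested, 5 fell (62.5%), 3 did not pass and none rose in limma, with a median log2 ratio of -0.35. These were the cathepsins Ctsh, Ctsc, Ctsl and Ctsb together with Lgmn, and no array of any of the 5 had a ratio above 0. Such agreement in sign, here and below, adds no support, since the genes were called on the same arrays. The share of all genes tested with the same sign on every array was not counted. In the same channels, 19 of 26 visceral endoderm markers, all of them tested, fell and none rose (limma, median -0.56). The summed scanner signal of these markers was 49522 to 57719 in the channels with less Cdx4 and 100141 to 118589 in the others, led by Afp (-2.04 ± 0.10 SE, limma adjusted p = 1.449e-13), the fetal albumin relative, and Cubn (-1.12 ± 0.10 SE, limma adjusted p = 5.571e-08), an endocytic receptor. The part of these cells in the lower cathepsin and serpin ratios was not tested.

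Ctsh, a lysosomal aminopeptidase (probe on chromosome 9, 89873883 to 89873942, mm8), had log2 ratios of -0.80, -0.90, -0.96 and -0.997 on arrays 1 to 4. It lay 1.88-fold lower (mean -0.91 ± 0.10 SE, limma adjusted p = 7.76e-07), and its scanner signal was 6944 to 8279 in the channels with less Cdx4 and 14033 to 14996 in the others. The channels did not overlap, and the 4 arrays were close to each other. Such separation, here and below, adds no support of its own, since the genes were called on the same arrays. Its share over all genes was not counted. Ctsc, the dipeptidyl peptidase that activates serine proteases of immune cells (chromosome 7, 88185118 to 88185177), had -0.72, -0.37, -0.63 and -0.65, 1.51-fold lower (mean -0.59 ± 0.10 SE, limma adjusted p = 0.000258). Its signal of 550 to 634 against 968 to 1119 did not overlap between the channels either.

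Lgmn (chromosome 12, 102795415 to 102795474) had log2 ratios of -0.91, -0.71, -0.29 and -0.17, a mean of -0.52 ± 0.11 (SE, limma adjusted p = 0.00447) and 1.43-fold lower. Arrays 1 and 2 were both below arrays 3 and 4, with means of -0.81 and -0.23, the widest gap between the labelled numbers among the 23 members. The channel with less Cdx4 carried the same dye on arrays 1 and 2 and the other dye on arrays 3 and 4. Labelled number and dye therefore cannot be told apart in this gap. Its signal was 4591 and 5001 against 8211 and 7995 on arrays 1 and 2, but 5554 and 5645 against 7084 and 6635 on arrays 3 and 4. Without array 1 the limma adjusted p was 0.0924, and without array 2 it was 0.0842.

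Ctsl and Ctsb, 2 broadly expressed lysosomal endopeptidases, fell less. Ctsl (chromosome 13, 64378710 to 64378769) had -0.42, -0.47, -0.30 and -0.33 (mean -0.38 ± 0.10 SE, limma adjusted p = 0.0158), from signals of 25166 to 28294 against 30895 to 39412. Ctsb (chromosome 14, 62097179 to 62097238) had -0.38, -0.26, -0.34 and -0.30 (mean -0.32 ± 0.10 SE, limma adjusted p = 0.0458), from 4424 to 4956 against 5488 to 6133. Neither gene's channels overlapped, but both calls ended with the scanner's own processed signals (limma adjusted p = 0.0966 for Ctsl and 0.140 for Ctsb). A second Ctsb probe (chromosome 14, 62099404 to 62099463) gave 0.09, -0.03, 0.06 and 0.13, so the probes of Ctsb disagreed, and with the mean of both the gene was not called (-0.13, limma adjusted p = 0.447).

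The other 3 tested cysteine cathepsins did not pass with the labelled numbers. Ctsz, an exopeptidase also called cathepsin X (chromosome 2, 174070666 to 174070725), had -0.07, -0.10, -0.26 and -0.31 (mean -0.18 ± 0.10 SE, limma adjusted p = 0.336), below 0 on each array. It passed in the dye-balanced pairing (limma adjusted p = 0.00123), where 19.5% of all genes were called lower and 22.6% higher. A second Ctsz probe had -0.20, -0.20, 0.09 and -0.09 (mean -0.10), above 0 on array 3. Ctso (chromosome 3, 82041303 to 82041362) had 0.38, 0.16, 0.02 and 0.08 (mean 0.16 ± 0.10 SE, limma adjusted p = 0.426; 0.00551 in the dye-balanced pairing). With the scanner's processed signals, 109 to 143 against 67 to 87, Ctso was called higher at a log2 ratio of 0.61 (limma adjusted p = 0.0138). Ctsf had a mean of 0.04 (limma adjusted p = 0.900), and Ctsk, Ctss and Ctsw, known from osteoclasts, antigen-presenting cells and lymphocytes, were not above background in either channel of any array.

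**Figure D2:**
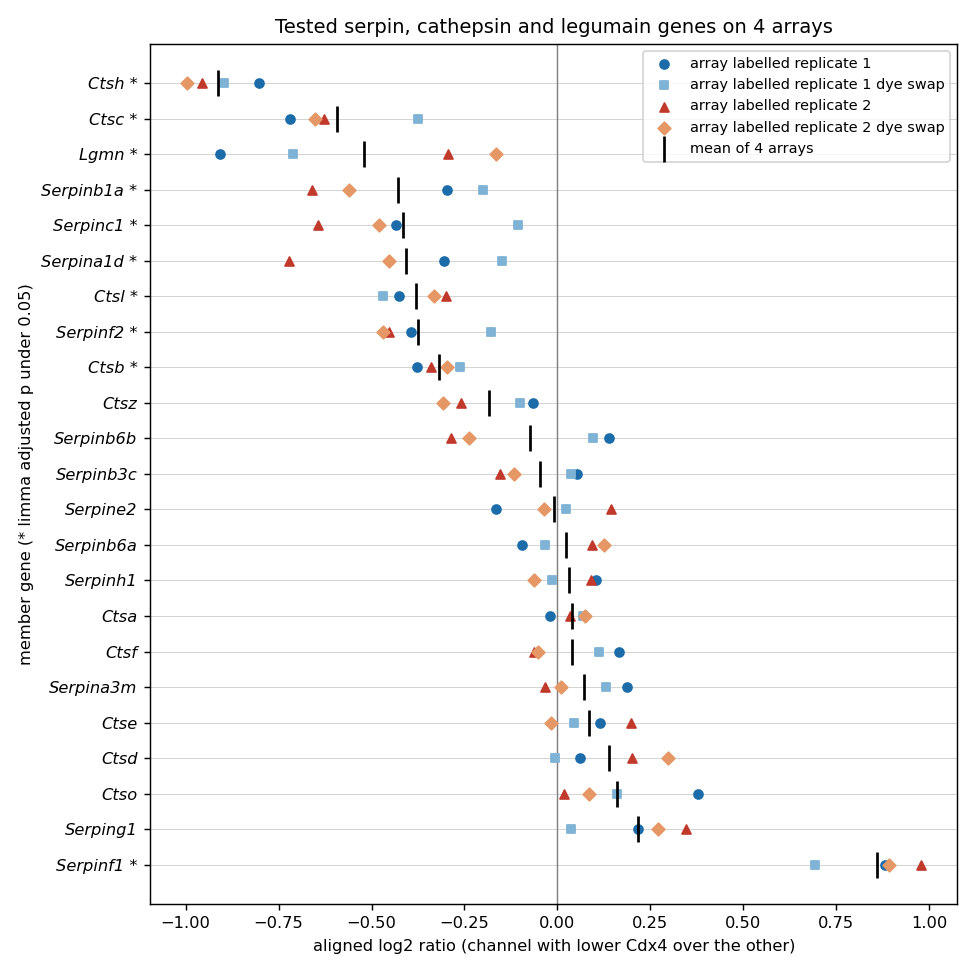
Aligned log2 ratio (horizontal axis; channel with less Cdx4 over the other) of the 23 tested genes on each of the 4 arrays, with a bar at the mean of the 4. Every array lay below 0 for the 9 genes called lower and above 0 for Serpinf1, and the arrays labelled replicate 1 stand apart from those labelled replicate 2 for Lgmn and Serpinb6b. The labelled replicates also differ in the dye of the channel with less Cdx4. Agreement in sign among called genes adds no support, since they were called on the same arrays.

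The promoters of some lysosomal members held the letters CACGTG, the palindromic E-box core known from promoters of lysosomal genes. RefSeq promoters (GRCm38.p6, the 250 bases before the start) were matched for 17 of the 23 tested members, and CACGTG stood in those of 5 genes, Ctsa, Ctsd, Ctsf, Ctsl and Lgmn. It stood in 6.86% of the 27025 genes with an entry and in 6.02% of 32851 promoters of the same length. Ctsl and Lgmn fell while Ctsa, Ctsd and Ctsf did not pass, so genes with these letters lay on both sides of the call. Shown here is Lgmn, a called gene with the letters close to a RefSeq start (chr12:102439093-102439342, minus strand, 49 bases before). The other RefSeq start of Lgmn lies upstream of the bases shown, and the 250 bases before it hold no CACGTG. Also shown are Ctsl, a called gene with the letters far from its start (chr13:64370521-64370770, minus strand, 236 bases before), and Ctsd (chr7:142387828-142388077, minus strand). Ctsd has no call and holds the letters at 245 and 98 bases. The sequences are printed 5′ to 3′ with CACGTG in capitals.
Lgmn: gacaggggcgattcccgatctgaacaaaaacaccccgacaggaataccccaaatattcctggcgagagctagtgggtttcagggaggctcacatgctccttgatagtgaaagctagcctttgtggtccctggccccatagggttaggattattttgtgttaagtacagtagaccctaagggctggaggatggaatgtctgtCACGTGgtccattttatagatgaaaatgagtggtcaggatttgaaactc
Ctsl: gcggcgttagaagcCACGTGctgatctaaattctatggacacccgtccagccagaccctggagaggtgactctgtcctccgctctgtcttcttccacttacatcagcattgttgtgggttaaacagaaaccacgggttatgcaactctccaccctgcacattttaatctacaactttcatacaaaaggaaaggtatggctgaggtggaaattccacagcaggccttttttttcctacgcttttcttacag
Ctsd: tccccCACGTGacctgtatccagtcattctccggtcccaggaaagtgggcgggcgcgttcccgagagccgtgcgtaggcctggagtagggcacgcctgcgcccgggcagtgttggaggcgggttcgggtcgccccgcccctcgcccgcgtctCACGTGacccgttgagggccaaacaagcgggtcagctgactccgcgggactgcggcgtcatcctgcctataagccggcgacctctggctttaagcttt

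The aspartic and serine cathepsins gave no call. Ctsd, the main lysosomal aspartic protease (chromosome 7, 142185447 to 142185506), had log2 ratios of 0.06, -0.01, 0.20 and 0.30 (mean 0.14 ± 0.10 SE, limma adjusted p = 0.518). It was called higher in the dye-balanced pairing (limma adjusted p = 0.0179), where 22.6% of all genes were called higher. Its signals of 5017 to 5981 and 4681 to 5611 overlapped between the channels. Ctsa, a serine carboxypeptidase that protects lysosomal glycosidases (chromosome 2, 164530093 to 164530152), had -0.02, 0.07, 0.03 and 0.07 (mean 0.04 ± 0.10 SE, limma adjusted p = 0.901). Its other tested probes averaged 0.12, above 0 on all 4 arrays, and -0.07, so the probes differed in sign. Ctse had a mean of 0.08 (limma adjusted p = 0.737), and Ctsg, a granule protease of neutrophils, was above background on 3 arrays in the channel with less Cdx4 and on 2 in the other, too few to be tested.

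The 8 placental cathepsins, a rodent family expanded on chromosome 13 (61013718 to 61574432, mm8) and known from trophoblast, were not tested. Cts3, Cts6, Cts7, Cts8, Ctsj, Ctsq and Ctsr were not well above background on any array, and Ctsm was so on 1 array in 1 channel. Of 23 trophoblast and decidua markers on the array, 13 were tested, and Tpbpa, Tpbpb and Gcm1 were among the 10 that were not. The prolactin family genes Prl8a2 (-1.41 ± 0.10 SE, limma adjusted p = 1.466e-09) and Prl3d1 (0.33 ± 0.10 SE, limma adjusted p = 0.0372) passed in opposite directions, and Plac1 fell (-0.47 ± 0.10 SE, limma adjusted p = 0.00452). Their list had a median of 0.04, and its summed signal was 4567 to 5395 in the channels with less Cdx4 and 5300 to 5673 in the others.

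Among the 55 serpins, 12 were tested, 4 fell (33.3%), 1 rose (8.33%) and 7 did not pass in limma, with a median log2 ratio of -0.03. Of the 4 that fell, 3 encode plasma inhibitors made by liver and yolk sac. Serpins of clades F and G, which hold plasma proteins too, did not all fall. Serpinf1 rose (0.86), and Serping1 had 0.22 without a call. Serpinc1, antithrombin (chromosome 1, 162839111 to 162839170), had -0.43, -0.11, -0.64 and -0.48 (mean -0.42 ± 0.10 SE, limma adjusted p = 0.0108). Serpina1d, a mouse alpha-1 antitrypsin gene (chromosome 12, 104164673 to 104164732), had -0.31, -0.15, -0.72 and -0.45 (mean -0.41 ± 0.10 SE, limma adjusted p = 0.0145). Serpinf2, the plasmin inhibitor alpha-2 antiplasmin (chromosome 11, 75248172 to 75248231), had -0.39, -0.18, -0.45 and -0.47 (mean -0.37 ± 0.10 SE, limma adjusted p = 0.0189). In each of these 3 genes that fell, array 2 gave the ratio nearest to 0, and all 4 arrays were below it.

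These probes were dim, and their ratios depended on the background correction. Serpinc1 had scanner signals of 43 to 67 against 111 to 120, Serpina1d 78 to 99 against 167 to 185, and Serpinf2 168 to 210 against 297 to 309. None of the 3 overlapped between the channels, which adds no support to calls made on the same arrays. From these processed signals, to which no offset of 50 was added, the mean log2 ratios were -1.18, -0.98 and -0.67 (limma adjusted p = 0.00154, 0.00230 and 0.00984), between 1.5 and 3 times as far from 0. Serpinc1 and Serpina1d lost their calls without array 1 (limma adjusted p = 0.0808 and 0.0733) and without array 4 (0.0593 and 0.0692). A second Serpinc1 probe (chromosome 1, 162832080 to 162834033) averaged -0.05, and with the mean of both probes the gene was not called (-0.23, limma adjusted p = 0.154). Serpina1d belongs to a family of near-identical genes, so its probe may also bind RNA of its relatives.

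Serpina1d was the only matched member whose promoter held GTTAAT, the half-site of the liver and endoderm factor HNF1, or TTTATG, letters of the kind that Cdx proteins bind. On either strand, GTTAAT stood in 7.49% of genes with an entry and in 6.43% of promoters, and TTTATG in 12.4% of genes and 10.8% of promoters. Its sequence (chr12:103773634-103773883, minus strand, GRCm38.p6) is shown because both stand in it, in capitals, GTTAAT at 16 and TTTATG at 177 bases before the start.
Serpina1d: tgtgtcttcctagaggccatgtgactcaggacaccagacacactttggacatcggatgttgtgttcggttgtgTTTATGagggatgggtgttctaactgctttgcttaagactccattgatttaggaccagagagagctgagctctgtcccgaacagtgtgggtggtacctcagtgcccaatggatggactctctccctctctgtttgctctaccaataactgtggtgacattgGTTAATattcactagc

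Serpinf1 was the 1 member called higher with the labelled numbers. It encodes pigment epithelium-derived factor, a secreted serpin that inhibits no protease and is known as a neurotrophic and anti-angiogenic protein. Its probe (chromosome 11, 75226261 to 75226320) had log2 ratios of 0.88, 0.69, 0.98 and 0.89, 1.82-fold higher (mean 0.86 ± 0.10 SE, limma adjusted p = 1.889e-06). The scanner signal was 706 to 792 in the channels with less Cdx4 and 313 to 337 in the others, with no overlap. A second probe (chromosome 11, 75231856 to 75231915) had 0.18, 0.07, 0.46 and 0.33, the same sign on each array at a mean of 0.26. Serpinf1 and Serpinf2 are neighbours, with their probes 21851 bases apart, and were called in opposite directions.

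Serping1, the C1 inhibitor of complement and contact proteases (chromosome 2, 84566650 to 84568156), had 0.22, 0.04, 0.35 and 0.27 (mean 0.22 ± 0.10 SE, limma adjusted p = 0.226). It passed in the dye-balanced pairing (limma adjusted p = 9.771e-05), where 22.6% of all genes were called higher. With processed signals of 98 to 122 against 68 to 91, it was called higher at 0.56 (limma adjusted p = 0.0236). Serpinh1, the collagen chaperone Hsp47 (chromosome 7, 99219542 to 99219603), had 0.10, -0.01, 0.09 and -0.06 (mean 0.03 ± 0.10 SE, limma adjusted p = 0.929). Its signals of 44336 to 49688 and 40747 to 49980 overlapped between the channels. Serpine2, protease nexin 1, had a mean of -0.01 (limma adjusted p = 0.983), and Serpina3m a mean of 0.07 (limma adjusted p = 0.788). The heparin cofactor Serpind1 and the pancreatic Serpini2 were not above background on any array, and Serpini1, a neuronal serpin, was so on 2 arrays in each channel.

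**Figure D3:**
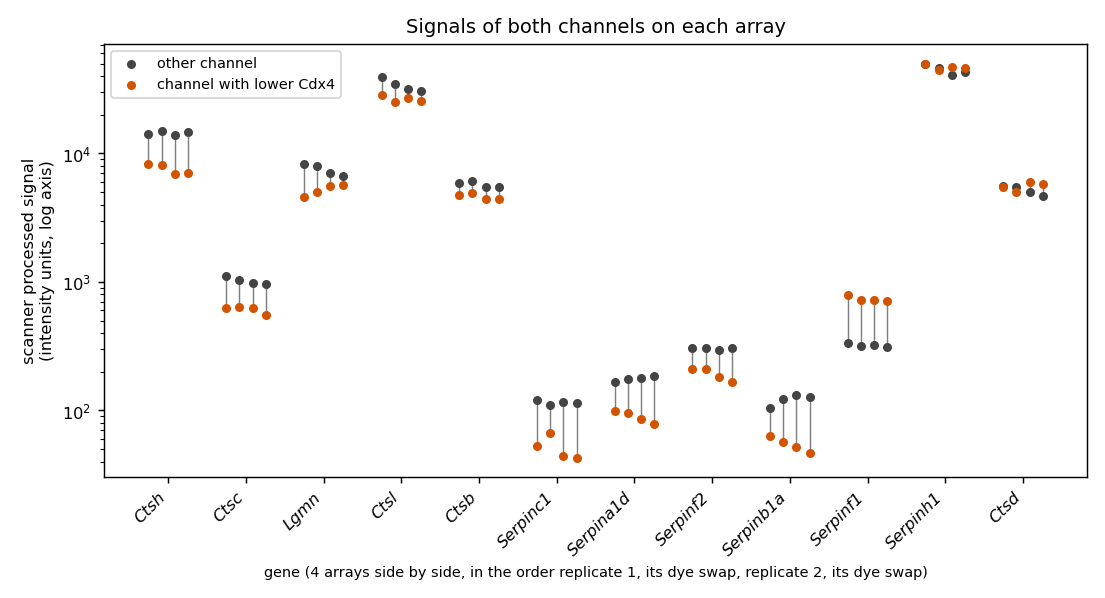
Scanner processed signal (vertical log axis, intensity units) of 12 members in both channels of each array, joined by a line per array. The channels separate on every array for the genes from Ctsh to Serpinb1a and, the other way, for Serpinf1, while those of Serpinh1 and Ctsd overlap; levels of different genes cannot be compared, since probes differ.

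Of the 25 clade B serpins, most of them intracellular inhibitors, 4 were tested and 1 fell. Serpinb1a, an inhibitor of elastase and cathepsin G (chromosome 13, 32850318 to 32850377), had -0.30, -0.20, -0.66 and -0.56 (mean -0.43 ± 0.10 SE, limma adjusted p = 0.00992). Arrays 3 and 4 were below arrays 1 and 2, the order opposite to that of Lgmn. Its signals were low, at 47 to 63 against 105 to 131, without overlap, and the processed signals gave -1.16 (limma adjusted p = 0.00168), while without array 4 the limma adjusted p was 0.0520. Serpinb6b had 0.14, 0.09, -0.29 and -0.24, with opposite signs in the labelled numbers (mean -0.07, limma adjusted p = 0.803). For Serpinb1a and Serpinb6b, as for Lgmn, labelled number and dye cannot be told apart. Serpinb3c and Serpinb6a had means of -0.05 and 0.02 (limma adjusted p = 0.885 and 0.954).

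**Figure D4:**
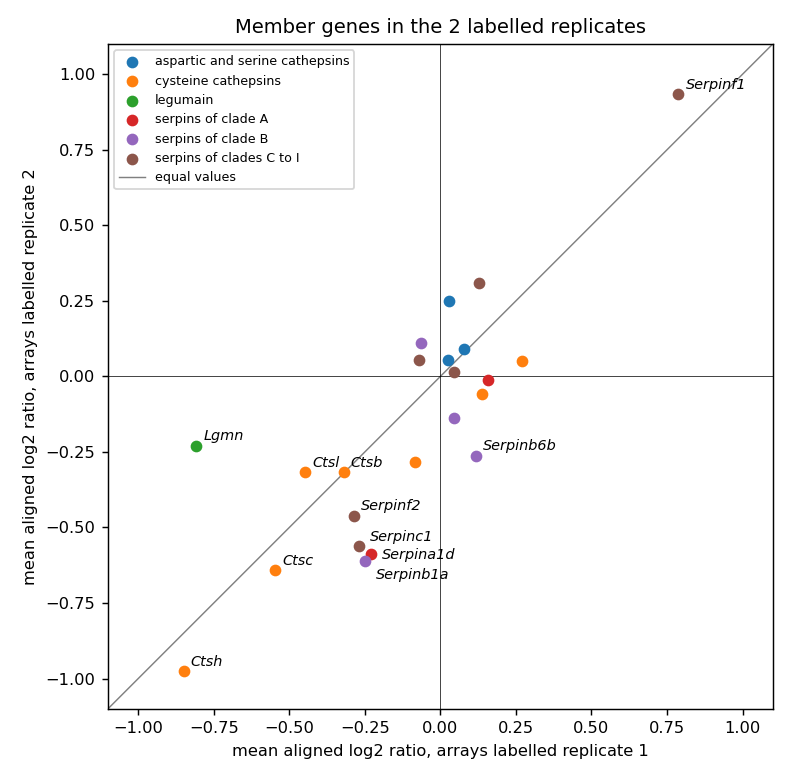
Mean aligned log2 ratio of arrays 3 and 4 (labelled replicate 2, vertical axis) against that of arrays 1 and 2 (labelled replicate 1, horizontal axis) for the 23 tested members, coloured by class, with the line of equal values. Lgmn lies far above the line at -0.81 and -0.23, Serpina1d, Serpinb1a and Serpinc1 lie below it, and Ctsb lies on it. The labelled replicates also differ in the dye of the channel with less Cdx4, so distance from the line may reflect either.

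Most serpins of the gene clusters were at background. In the Serpina cluster of chromosome 12 (104016120 to 104814817, mm8), 2 of 19 genes were tested, Serpina1d and Serpina3m, and 8 had no probe above background on any array. In the Serpinb cluster of chromosome 13 (32850318 to 33931494), 3 of 13 were tested and 5 were never above background, and in that of chromosome 1 (108709555 to 109435760), 1 of 12 was tested and 10 were never above background. Over all clusters, the clade A genes never above background were Serpina12, Serpina1b, Serpina1f, Serpina3c, Serpina3f, Serpina3n, Serpina5, Serpina6 and Serpina7. Those of clade B were Serpinb10, Serpinb12, Serpinb13, Serpinb1b, Serpinb2, Serpinb3a, Serpinb3b, Serpinb3d, Serpinb5, Serpinb7, Serpinb8, Serpinb9, Serpinb9b, Serpinb9c and Serpinb9f. Above background in too few hybridisations to be tested were Serpina10, Serpina11, Serpina1c, Serpina3a, Serpina3b, Serpina3g, Serpina3k, Serpina4-ps1, Serpina9, Serpinb11, Serpinb1c, Serpinb6c, Serpinb9d, Serpinb9e and Serpinb9g. Of all 55 members not tested, 37 were not well above background on any array and 18 were so on some; on arrays such genes have only a bound.

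Genes that work with the members were described from lists. Of 43 lysosomal sorting and hydrolase genes on the array, 41 were tested, 2 fell, none rose and 39 did not pass in limma, with a median of 0.04. Igf2r, the receptor that sorts hydrolases to the lysosome by mannose 6-phosphate, had -0.54 ± 0.11 (SE, limma adjusted p = 0.00164), and Manba, a mannosidase, had -0.37 ± 0.10 (SE, limma adjusted p = 0.0184). Of 18 cystatins and other cathepsin inhibitors, 5 were tested and 1 rose. It was Ahsg, the plasma protein fetuin-A of the cystatin superfamily (0.73 ± 0.10 SE, limma adjusted p = 2.093e-05). Cst3, cystatin C, had 0.25 (limma adjusted p = 0.145), and Cstb, an intracellular cystatin, 0.13 (limma adjusted p = 0.578).

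Of 30 serine proteases and receptors met by serpins, 20 were tested, 4 fell (20%), 1 rose (5%) and 15 did not pass in limma, with a median of -0.06. The 4 were plasma proteases: F2, prothrombin (-0.57 ± 0.11 SE, limma adjusted p = 0.000955), Masp2 of the complement lectin pathway (-0.55 ± 0.10 SE, limma adjusted p = 0.000827), Plg, plasminogen (-0.38 ± 0.10 SE, limma adjusted p = 0.0158), and F10, a clotting factor (-0.34 ± 0.10 SE, limma adjusted p = 0.0375). Prothrombin and plasminogen give rise to the proteases that Serpinc1 and Serpinf2 inhibit, and a link between these falls was not tested. Serpinc1 was not called with the mean of its probes (-0.23, limma adjusted p = 0.154). F9, also a clotting factor of the list, had -0.01 (limma adjusted p = 0.983). The 1 that rose was Vtn, vitronectin, which is neither a protease nor a receptor (0.74 ± 0.10 SE, limma adjusted p = 1.595e-05). The plasminogen activator Plat had 0.23 (limma adjusted p = 0.191).

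**Figure D5:**
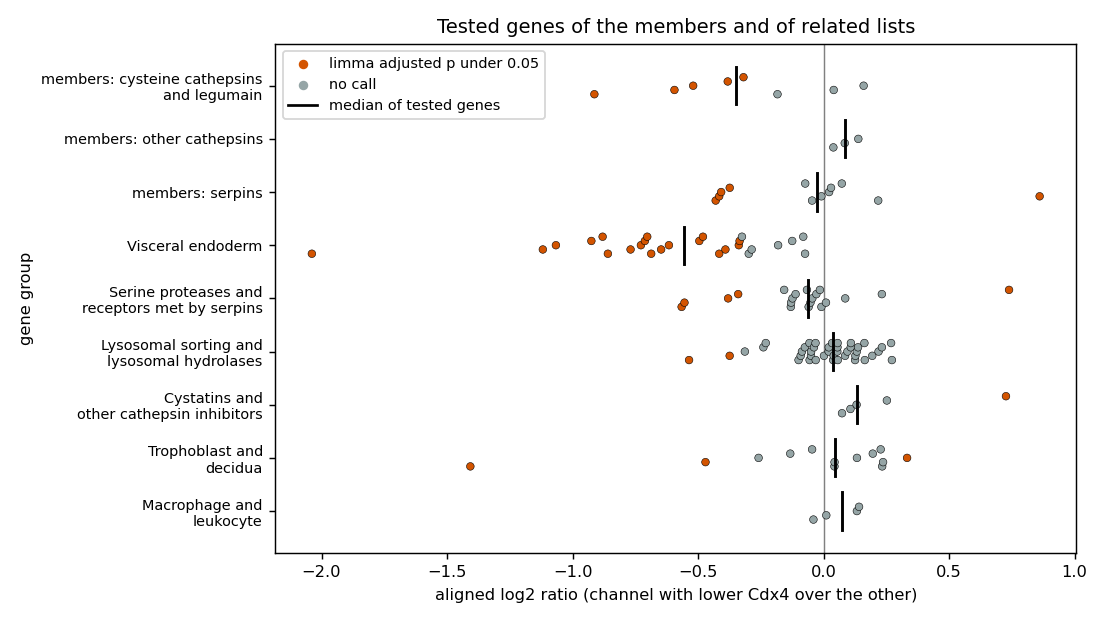
Aligned log2 ratio (horizontal axis) of each tested gene of the members and of 6 related lists, with a bar at the median of each group and called genes coloured. The median is -0.35 for the cysteine cathepsins and legumain and -0.56 for the visceral endoderm markers, and 0.04 for the lysosomal genes, of which 39 of 41 were not called.

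Other cell types that hold cathepsins and serpins were read from their markers. Of 19 macrophage and leukocyte markers, 4 were tested (Cd68, Fcer1g, C1qb and Coro1a), none passed in limma with the labelled numbers, and the defining genes Ptprc, Csf1r and Adgre1 were among the 15 not tested. Their summed signal was 472 to 552 in the channels with less Cdx4 and 401 to 494 in the others, ranges that overlapped. Of 14 parietal endoderm markers, 3 fell and 1 rose (median -0.03). Endothelial markers fell in 5 of 15 (median -0.15), led by Kdr (-0.97 ± 0.10 SE, limma adjusted p = 3.569e-07), the VEGF receptor. The other 10 did not pass, Pecam1, Tek and Cd34 among them. Sox7 (-0.48 ± 0.10 SE, limma adjusted p = 0.00332) was counted in the parietal endoderm and endothelial lists alike. Primitive erythroid and megakaryocyte markers rose in 3 of 8 tested, led by the embryonic globin Hbb-bh1 (1.35 ± 0.10 SE, limma adjusted p = 2.796e-09). Of 20 tail bud, presomitic and neural markers, all were tested, 6 rose and 1 fell (median 0.17). The 1 that fell was Cdx2, of which the mutant has lost 1 allele, and Cdx1 was among the 6 that rose. Meox1 (0.91, limma adjusted p = 1.102e-06) and Tcf15 (0.85, limma adjusted p = 2.33e-06) rose most, while T, Tbx6, Msgn1 and Fgf8 did not pass. The part of all these cell types in the members' ratios was not tested.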

How the data were processed

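Each of the 4 arrays was read from its scanner file. The submitters' processing notes name Agilent Feature Extraction 9.5.3. The deposited values, per the file headers, are spot intensities of Cy3 and Cy5 (mean signal, median local background and a background-subtracted, dye-normalised signal) and a log10 ratio of Cy5 over Cy3; probe positions are on mm8. The authors' series table holds log10 ratios that equal the scanner's on arrays 1 and 3 and their negative on arrays 2 and 4 (tolerance 1e-05; column medians 0), so it runs as mutant over wildtype by the labels.

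With limma 3.58.1 under R 4.3.3, background was removed from the intensities (normexp, offset 50), which pulls ratios of dim probes towards 0, and ratios were normalised by loess within arrays with control spots at weight 0. Control spots were dropped, as were 103 to 167 outlier spots per array, and spots of a probe averaged. Each gene took its brightest tested probe. Log2 ratios were turned by the sign of Cdx4, averaged by labelled replicate number (n = 2), and fitted in limma (lmFit, eBayes); p-values were adjusted over genes by Benjamini-Hochberg, with a threshold of 0.05. Standard errors are moderated (23.9 prior and 1 residual degrees of freedom), and dye bias adds to the spread. In the dye-balanced pairing the prior was infinite and the standard error was 0.05 for nearly all genes, so its calls are many if the labelled numbers are right. The procedure was tested on simulated data with the same noise for every gene and no dye bias. These arrays differ from that setting, so the simulation adds no support to the calls. The number of arrays limits the precision of every value, and all 4 lie on 1 slide.

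Values by array are given for the members called, the 4 uncalled members with the largest ratio, the 4 with the highest signal, and Cdx1, Cdx2 and Cdx4; other tested members are named with their mean, and related lists by at most 5 called genes. Serpinb6b was given by array after its values were seen. Members and lists were chosen with earlier results of these data known. RefSeq names came from a GRCm38.p6 table; exon and UTR annotation of mm8 was not used here. A probe named 4930482L21Rik, now Serpinb6a, lies outside the name rule and was not counted. Of the members that were not tested, 1 is left unnamed and is not reported here.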

Additional observations from a re-analysis of the deposited data

How the results depend on the processing

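Of the 10 calls (9 lower, 1 higher), 8 or more held in 10 of the 17 alternatives with a test. The scanner's processed signals and the authors' series table are both counted here, although they hold the same ratios up to sign. All 10 calls held in the dye-balanced pairing, in the third pairing (arrays 1 with 4 and 2 with 3), with 4 arrays as 4 values and without array 3. The 2 other pairings leave each mean ratio unchanged. They called many more of the 14868 genes, 3353 higher and 2900 lower in the dye-balanced pairing and 4455 and 3728 in the third. That the calls held in these pairings is therefore no separate support. The count of members called higher, 1 as reported, was 4 in the dye-balanced pairing, 5 in the third pairing, 2 with 4 arrays as 4 values, 3 with the scanner's processed signals and 3 with the authors' series table, and 1 to 2 on leaving out each array in turn. The count called lower, 9 as reported, was 6 to 9 on leaving out each array in turn, 4 with arrays 1 and 4 alone and 5 with arrays 2 and 3 alone (both added after the data were seen). No member was called, 0 higher and 0 lower, under 3 settings. With the arrays as labelled, unturned, limma called 3 genes higher and 26 lower of 14469 (286 at an unadjusted p under 0.05), and Ctsh, Serpinb1a, Serpina1d and Ctsl turned to 0.0129, 0.0007, 0.0283 and 0.0026, since opposite ratios cancel there. Where arrays were centred on their median instead, limma called 6 and 2 of 14868 (580 unadjusted), and without the filter on dim probes 10 and 4 of 27574 (3722 unadjusted); the cause was not tested. Median centring moved the median over all genes from 0.02 to 0.28 and that of the members to 0.16, and Ctsl and Ctsb to 0.22 and 0.16; relative to all genes these are -0.06 and -0.12, Ctsh -0.66, Lgmn -0.31 and Serpinf1 0.83. The members' median, -0.05 as reported, was -0.14 without replicate 1 and ranged up to -0.0089 on leaving out each array. Counts over all genes moved from 480 higher and 641 lower to 4455 and 3728 in the third pairing, 1609 and 1395 with 4 arrays as 4 values, and 623 and 1049 with the processed signals. Arrays 1 and 4 alone gave 242 and 387, arrays 2 and 3 alone 285 and 327. Signals near background limit Serpinb1a, Serpinc1, Serpina1d, Ctso and Serping1.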
